A study of Homo sapiens with 8 samples.

Results

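The Hippo-YAP genes are 10 members of the pathway through which cells read contact and tension. They are the coactivators YAP1 and WWTR1, the DNA-binding partners TEAD1, TEAD3 and TEAD4, the kinases LATS1 and LATS2, and the upstream regulators NF2, AMOTL1 and AMOTL2. They were taken by symbol from a table of 59385 gene symbols, and all 10 were among the 16228 genes with enough counts to be tested. Their mRNAs were measured in polysomes and in total RNA of IHCF cells, an immortalized line of human cardiac fibroblasts, the matrix-secreting cells of the heart. The 4 groups were polysomal RNA of EIF4G2-knockdown cells, polysomal RNA of scramble cells, total RNA of EIF4G2-knockdown cells and total RNA of scramble cells, with 2 libraries each. Knockdown cells carried a lentiviral short hairpin RNA against EIF4G2 (also called DAP5), a translation initiation factor related to EIF4G1, and scramble cells a hairpin without a target. Cells of both kinds went through at least 6 h of serum starvation and 24 h of TGF-beta, so no group shows cells without TGF-beta. The labels name a single hairpin target and no rescue, so other effects of the hairpin and the loss of EIF4G2 cannot be told apart. The labels call the libraries biological replicates without saying that they came from separate cultures, so the p-values rest on a spread between libraries that may be technical.

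In the Hippo pathway a kinase cascade ends in LATS1 and LATS2, which phosphorylate YAP1 and WWTR1 and keep them out of the nucleus. When the kinases are quiet, YAP1 and WWTR1 enter the nucleus and bind the TEAD proteins, which hold them on DNA and turn on genes of growth, adhesion and matrix. In fibroblasts the pathway is known for its part in the turn to contractile, matrix-making myofibroblasts. Polysomes are mRNAs carrying several ribosomes, so a gene's polysomal level over its total level describes where its mRNA stood, while neither level measures protein.

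The libraries held 18043714 to 24590030 counts, and a member had 83 to 1642 counts in a polysome library and 616 to 4816 in a total library. Levels are CPM, a gene's share of the counts of its TMM-scaled library, so each is relative to the other genes of its library and is not an amount per cell. Replicates differed beyond counting noise in every group, by a chi-square over its degrees of freedom of 37.2 between the knockdown polysome, 119 between the scramble polysome, 25.5 between the knockdown total and 2.60 between the scramble total libraries. EIF4G2 mRNA had 244 and 334 CPM in knockdown polysome against 875 and 876 CPM in scramble polysome libraries, and 293 and 327 CPM in knockdown total against 793 and 785 CPM in scramble total libraries. Its log2 fold change was −1.60 ± 0.18 in polysomal RNA (edgeR adjusted p = 0.0276) and −1.35 ± 0.18 in total RNA, where edgeR's adjusted p = 0.0504 just missed the threshold and DESeq2 gave 4.05e-10. Of 11 fibroblast markers, 10 passed the filter, all but DCN, and their sum was 6274 to 6924 CPM in knockdown polysome, 5990 to 6880 CPM in scramble polysome, 6022 to 6225 CPM in knockdown total and 5466 to 5557 CPM in scramble total libraries. COL1A1 and VIM made up most of that sum, with COL1A1 above VIM in the total libraries and below it in the polysome libraries. DESeq2 called 1 of the 10 tested fibroblast markers lower in knockdown polysomal RNA, where it called 0.826% of tested genes lower, and edgeR called 0 of them. All 6 leukocyte markers and 7 of 8 cardiomyocyte markers averaged under 1 CPM, and the cardiomyocyte markers summed to 0.810 to 1.87 CPM in knockdown polysome and 4.04 to 6.71 CPM in scramble polysome libraries. The 6 epithelial markers summed to 2237 to 2269 CPM in knockdown polysome, 3130 to 3202 CPM in scramble polysome, 1166 to 1423 CPM in knockdown total and 1365 to 1394 CPM in scramble total libraries. Nearly all of that sum was the keratins KRT8 and KRT18, with 30535 and 14640 counts in knockdown total replicate 1. EPCAM had only 6 to 40 counts per library and CDH1 0 to 5. The 6 mural cell markers summed to 78.6 to 94.8 CPM in knockdown polysome, 107 to 143 CPM in scramble polysome, 384 to 443 CPM in knockdown total and 462 to 479 CPM in scramble total libraries. DESeq2 called 2 of the 5 tested mural cell markers lower in knockdown polysomal RNA, against the same 0.826% of tested genes, and edgeR called 0. The part of these marker differences in the results below was not tested.

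Polysomal RNA was first set against total RNA, which asks how much of each pathway mRNA stood in polysomes relative to other genes. TEAD4 was higher in polysomes in both kinds of cell and the other 9 members were lower. Thus 1 of 10 members was higher and 9 of 10 were lower in knockdown cells, where 28.9% of all tested genes were higher and 34.1% lower by edgeR's quasi-likelihood test at a Benjamini-Hochberg adjusted threshold of 0.05. The same counts held in scramble cells, where 29.7% of tested genes were higher and 33.7% lower. The members' median log2 fold change of polysomal over total RNA was −1.29 in knockdown and −1.43 in scramble cells, against −0.16 and −0.17 over all tested genes. DESeq2 called the same 10 members in the same directions, where it called 28.2% of tested genes higher and 34.1% lower in knockdown cells and 28.7% higher and 34.1% lower in scramble cells. The rule that chose the members did not use these values, although the list was drawn up with earlier results of these data known.

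**Figure D1:**
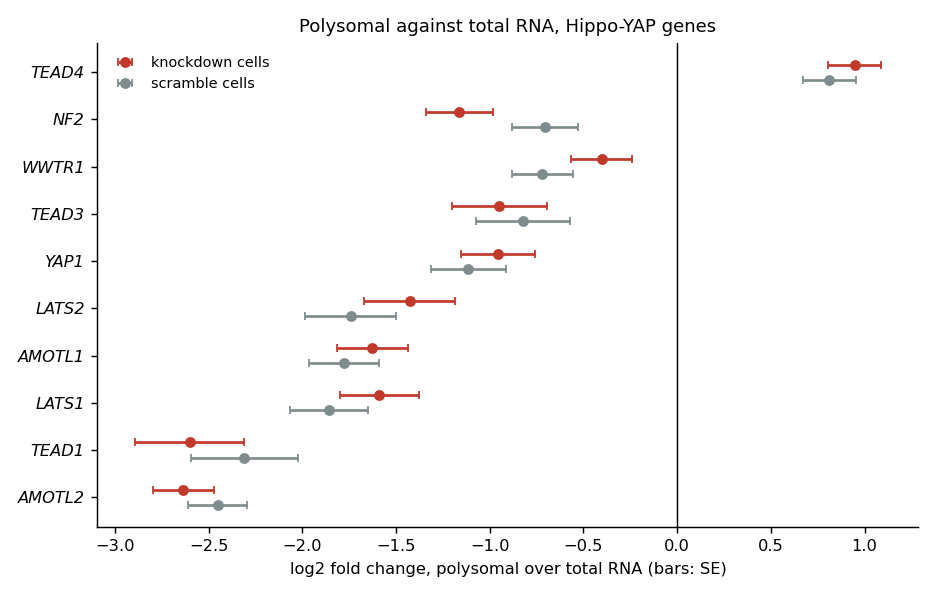
Log2 fold change of polysomal over total RNA (x axis) for the 10 Hippo-YAP genes (y axis, ordered by the scramble value), in knockdown cells (red) and scramble cells (grey); points are edgeR estimates and bars their standard errors. TEAD4 lies at 0.95 and 0.81, to the right of 0, and the other 9 genes lie to the left, down to −2.63 and −2.45 for AMOTL2.

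The TEAD proteins bind DNA and carry YAP1 or WWTR1 to their target genes. The polysomal over total values of this family were spread widely, with TEAD4 the highest of the members, TEAD3 between and TEAD1 near the lowest. TEAD4, on chromosome 12 of GRCh38 (2959330 to 3040673, plus strand), had 103 and 97.5 CPM in knockdown polysome libraries against 55.8 and 48.3 CPM in knockdown total libraries, and 88.9 and 87.0 CPM in scramble polysome libraries against 48.6 and 51.6 CPM in scramble total libraries. Every polysome library was above every total library. The log2 fold change of polysomal over total RNA was 0.95 ± 0.14 (SE) in knockdown cells (edgeR adjusted p = 0.000147) and 0.81 ± 0.14 in scramble cells (edgeR adjusted p = 0.000432), which placed TEAD4 at the 74.2 and 70.3 percentiles of all tested genes.

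TEAD1, on chromosome 11 (12674591 to 12944483, plus strand), had 20.0 and 15.1 CPM in knockdown polysome libraries against 95.6 and 118 CPM in knockdown total libraries. In scramble cells it had 32.6 and 16.03 CPM in polysome libraries against 127 and 114 CPM in total libraries. Its polysomal level was far below its total level in every library, and scramble polysome replicate 1 was above the other 3 polysome libraries. The log2 fold change was −2.60 ± 0.29 in knockdown cells (edgeR adjusted p = 2.01e-05) and −2.31 ± 0.28 in scramble cells (edgeR adjusted p = 3.56e-05), at the 13.03 and 13.52 percentiles. TEAD3, on chromosome 6 (35473597 to 35497076, minus strand), was lower in polysomes by a smaller step, with 24.4 and 18.2 CPM in knockdown polysome against 41.3 and 41.2 CPM in knockdown total libraries, and 14.0 and 25.2 CPM in scramble polysome against 33.6 and 35.7 CPM in scramble total libraries. Its log2 fold changes were −0.95 ± 0.25 in knockdown and −0.82 ± 0.25 in scramble cells (edgeR adjusted p = 0.00716 and 0.0145). The count of TEAD4 over that of TEAD1 in the same library, with no correction for length, was 2.72 to 6.46 in the polysome libraries and 0.381 to 0.584 in the total libraries.

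TEAD3 and TEAD4 start at a codon other than ATG in the transcripts used here, which is why the sequence around the start is shown for the TEAD genes and for the coactivators. Each is the 12 bases before the annotated start, the start codon in capitals and the 3 bases after it, from the GENCODE v29 transcript used here (GRCh38).
TEAD4: ccaagcggagccTTGgag
TEAD3: gcaaccagcacaATAgcg
TEAD1, transcript in the consensus coding set: cccaccgccaaaATTgag
TEAD1, principal transcript: cctgccgaaaacATGgaa
TEAD2: cgggaggcccagATGggg
YAP1: gaggcagaagccATGgat
WWTR1: attttccagaagATGaat
The TEAD4 and TEAD3 transcripts open at TTG and ATA. Of 12891 tested genes with a coding model, 22 (0.171%) opened at a codon other than ATG, and the annotation marks 4 of these as such. For TEAD1 the annotation holds transcripts that open at ATT, with 1281 coding nt, and others that open at ATG, among them the one with 1074 coding nt ranked first, and gene counts do not tell them apart. TEAD4 also has a lower-ranked transcript in the consensus coding set that opens at ATG, with 918 coding nt. TEAD2, YAP1 and WWTR1 have further transcripts with other bases before the ATG, for WWTR1 at equal rank. Gene counts do not separate these either. The family's polysomal over total values lay on both sides of 0, TEAD4 above and TEAD3 and TEAD1 below. None of TEAD1, TEAD3 and TEAD4 had an ATG in the 5′ UTR of the transcript used. The remaining members opened at ATG.

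YAP1 and WWTR1 (also called TAZ) are the coactivators that the pathway controls. YAP1, on chromosome 11 (102110461 to 102233423, plus strand), had 69.0 and 51.6 CPM in knockdown polysome libraries against 102 and 133 CPM in knockdown total libraries, and 59.9 and 46.0 CPM in scramble polysome libraries against 116 and 113 CPM in scramble total libraries. WWTR1, on chromosome 3 (149517235 to 149736714, minus strand), had 37.4 and 37.9 CPM in knockdown polysome libraries against 47.5 and 52.0 CPM in knockdown total libraries, and 32.4 and 25.2 CPM in scramble polysome libraries against 48.6 and 46.4 CPM in scramble total libraries. Both were lower in polysomes, and no polysome library reached a total library of the same cells. For YAP1 the log2 fold change was −0.96 ± 0.20 in knockdown cells (edgeR adjusted p = 0.00154) and −1.11 ± 0.20 in scramble cells (edgeR adjusted p = 0.000522). For WWTR1 it was −0.72 ± 0.16 in scramble cells (edgeR adjusted p = 0.00273), and −0.40 ± 0.16 in knockdown cells with an edgeR adjusted p = 0.04995, at the threshold. That call was lost in 5 of the 8 fits that left out a library, with an edgeR adjusted p of up to 0.168. The count of YAP1 over that of WWTR1, with no correction for length, was 1.36 to 1.85 in polysome and 2.14 to 2.55 in total libraries, without overlap.

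LATS1 and LATS2 are the kinases that phosphorylate YAP1 and WWTR1. LATS1, on chromosome 6 (149658153 to 149718256, minus strand), had 7.56 and 7.04 CPM in knockdown polysome against 19.3 and 24.7 CPM in knockdown total libraries, and 6.93 and 6.23 CPM in scramble polysome against 23.4 and 24.3 CPM in scramble total libraries. LATS2, on chromosome 13 (20973032 to 21061547, minus strand), had 11.6 and 9.85 CPM in knockdown polysome against 22.2 and 35.7 CPM in knockdown total libraries, and 9.10 and 9.32 CPM in scramble polysome against 32.9 and 28.7 CPM in scramble total libraries. The kinases moved alike, with polysomal values below every total value. The log2 fold change of LATS1 was −1.59 ± 0.21 in knockdown and −1.86 ± 0.21 in scramble cells, and that of LATS2 was −1.43 ± 0.24 and −1.74 ± 0.24 in the same order of cells (edgeR adjusted p of 1.79e-05 to 0.0004). The count of LATS2 over that of LATS1 was 1.31 to 1.54 in polysome and 1.15 to 1.45 in total libraries, which overlap.

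NF2 encodes merlin, a membrane-linked scaffold that activates LATS kinases, and the angiomotin-like proteins AMOTL1 and AMOTL2 hold YAP1 at junctions and actin. NF2, on chromosome 22 (29603556 to 29698598, plus strand), had 61.1 and 65.1 CPM in knockdown polysome against 151 and 131 CPM in knockdown total libraries, and 42.4 and 60.0 CPM in scramble polysome against 85.1 and 81.9 CPM in scramble total libraries. Its polysomal libraries were lower in both kinds of cell, with a wider gap in knockdown cells, where its total level was highest, a difference that did not pass its own test, given with the ratio. The log2 fold change of NF2 was −1.16 ± 0.18 in knockdown cells (edgeR adjusted p = 0.000182) and −0.71 ± 0.18 in scramble cells (edgeR adjusted p = 0.00483).

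AMOTL1, on chromosome 11 (94706431 to 94876753, plus strand), had 13.5 and 12.5 CPM in knockdown polysome against 34.6 and 45.7 CPM in knockdown total libraries, and 15.7 and 13.7 CPM in scramble polysome against 50.9 and 50.1 CPM in scramble total libraries. AMOTL2, on chromosome 3 (134355874 to 134375479, minus strand), had 23.0 and 22.2 CPM in knockdown polysome against 128 and 153 CPM in knockdown total libraries, and 24.1 and 28.5 CPM in scramble polysome against 147 and 141 CPM in scramble total libraries. Every polysome library of both genes was far below every total library. The log2 fold change of AMOTL2 was −2.63 ± 0.16 in knockdown cells (edgeR adjusted p = 6.88e-07) and −2.45 ± 0.16 in scramble cells (edgeR adjusted p = 8.76e-07), the lowest value of the 10 members in both. AMOTL1 had −1.63 ± 0.19 in knockdown and −1.78 ± 0.19 in scramble cells (edgeR adjusted p = 2.47e-05 and 1.1e-05).

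**Figure D2:**
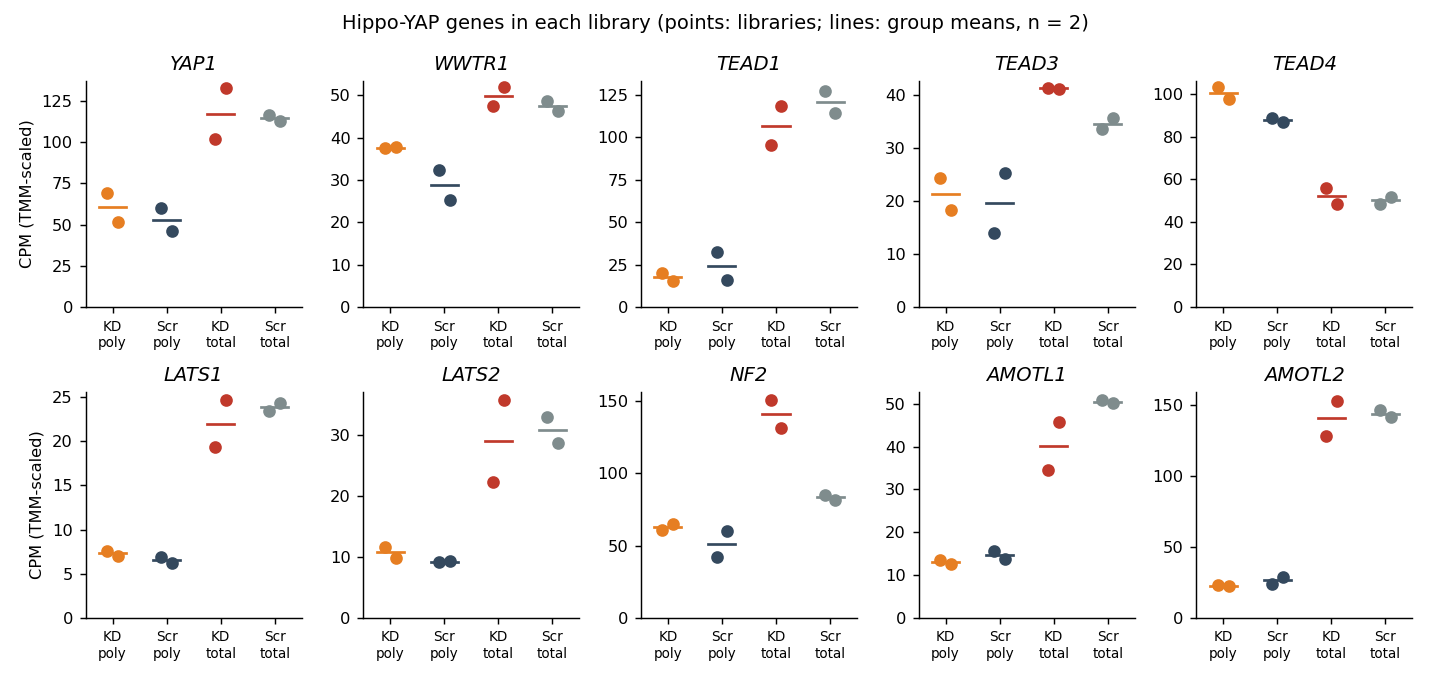
TMM-scaled CPM (y axis, from 0, a separate scale for each gene) of the 10 Hippo-YAP genes in the 8 libraries, by group: KD poly and Scr poly, polysomal RNA of knockdown and scramble cells; KD total and Scr total, their total RNA. Points are libraries and lines group means; the polysome points lie below the total points for every gene but TEAD4, and NF2 in knockdown total RNA (151 and 131) lies above NF2 in scramble total RNA (85.1 and 81.9).

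Levels were compared between genes after division by the length of each gene's merged exons, which understates genes that use a short transcript. In knockdown polysomes TEAD4 led with 44.2 ± 1.84 CPM per kb (SD, n = 2), followed by YAP1 with 9.58 ± 1.96 and NF2 with 8.80 ± 0.39, which do not differ beyond their spread. In scramble polysomes TEAD4 again led with 38.7 ± 0.60 CPM per kb, followed by YAP1 with 8.41 ± 1.56 and NF2 with 7.14 ± 1.74, which lie within their spread of each other. In knockdown total RNA AMOTL2 and TEAD4 were the highest, with 23.5 ± 2.90 and 22.9 ± 2.33 CPM per kb, followed by NF2 with 19.7 ± 1.97 and YAP1 with 18.6 ± 3.48, and none of these neighbours differed beyond its spread. Scramble total RNA had AMOTL2 at 24.0 ± 0.62, TEAD4 at 22.1 ± 0.95 and YAP1 at 18.2 ± 0.37 CPM per kb, while TEAD1, NF2 and TEAD3 lay close together at 11.8 ± 0.90, 11.6 ± 0.32 and 11.4 ± 0.48. LATS1 was the lowest member per kb in all 4 groups, with 0.845 ± 0.042 in knockdown polysomes, 0.762 ± 0.057 in scramble polysomes, 2.55 ± 0.44 in knockdown total and 2.76 ± 0.07 in scramble total RNA.

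Long coding regions went with low polysomal levels in these libraries as a whole. Across 12891 genes with a coding model, the Spearman correlation between coding length and the log2 fold change of polysomal over total RNA was −0.58 in knockdown and −0.61 in scramble cells, a description across genes that share libraries. In scramble cells the median log2 fold change was 1.80 for coding regions of up to 500 nt, 0.12 between 1000 and 1500 nt, −0.37 between 1500 and 2000 nt, −0.87 between 2000 and 3000 nt and −1.72 between 3000 and 5000 nt. LATS1, with 3393 coding nt, and LATS2, with 3267, lay at −1.86 and −1.74 and so close to the median of genes of their coding length. TEAD4 and TEAD3 are nearly equal in coding length, 1305 and 1308 nt, yet lay at 0.81 and −0.82, on both sides of the median of 0.12. The values of TEAD1 (1074 nt) and AMOTL2 (2343 nt), −2.31 and −2.45, were below the medians of their coding length, 0.12 and −0.87. So were those of AMOTL1 (2871 nt), YAP1 (1515 nt), WWTR1 (1203 nt) and NF2 (1788 nt). TEAD4 has the shortest transcript model of the members, with 1690 nt and a 3′ UTR of 195 nt, against 2983 nt and 1447 nt in TEAD3. Transcript length had a Spearman correlation of −0.61 with the scramble fold change, and some members lay differently by it. TEAD4 was below the median of 1.19 for transcripts of 1000 to 2000 nt. WWTR1 (5030 nt) was above the −1.02 of 4000 to 6000 nt, and NF2 (6025 nt) above the −1.56 of transcripts over 6000 nt. The remaining members were below the medians of their transcript length, YAP1 (5386 nt) by little. The number of ATGs in the 5′ UTR was 5 for LATS2, 3 for LATS1 and NF2, 2 for WWTR1 and AMOTL1, 1 for YAP1 and 0 for AMOTL2 and the TEAD genes, and the Spearman correlation between that number and the scramble fold change was −0.07 across genes. What part any of these features has in the members' values was not tested.

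**Figure D3:**
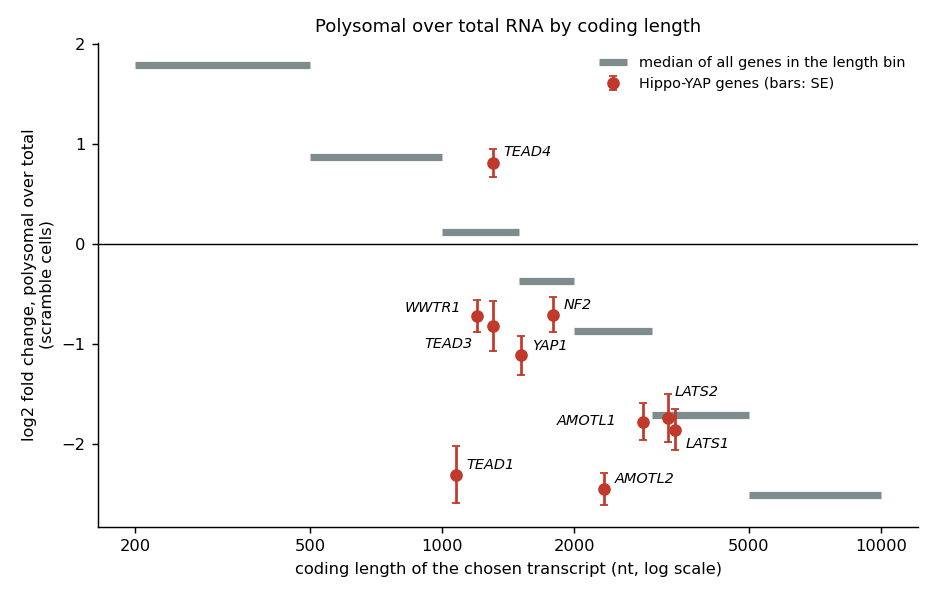
Log2 fold change of polysomal over total RNA in scramble cells (y axis) against the coding length of the transcript used (x axis, nt, log scale) for the 10 Hippo-YAP genes (red points, bars are standard errors). Grey bars are the medians of all genes in a range of coding length, with the shortest and the longest range drawn in part; LATS1 and LATS2 lie near the median of −1.72, TEAD4 above its median, and TEAD1 and AMOTL2 well below theirs.

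The knockdown was then compared with scramble in total RNA, which asks whether loss of EIF4G2 went with other levels of these mRNAs. No member was called by edgeR, which called 0% of the 16228 tested genes in either direction, with 598 genes at an unadjusted p under 0.05. DESeq2 called 26 genes (0.16%), and NF2 was among them. NF2 had 151 and 131 CPM in knockdown total against 85.1 and 81.9 CPM in scramble total libraries, so both knockdown libraries were above both scramble libraries. The log2 fold change was 0.76 ± 0.17, with a 95% interval of 0.37 to 1.14, an unadjusted p = 0.00121 and an adjusted p = 0.757 by edgeR. DESeq2 gave 0.74 and an adjusted p = 0.0325, and edgeR on the 4 total libraries alone gave 0.74 with an adjusted p = 0.0856. Leaving out any library kept the NF2 fold change between 0.65 and 0.85.

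The other members did not reach an unadjusted p of 0.05 in total RNA. Their log2 fold changes ran from −0.33 ± 0.18 for AMOTL1 to 0.25 ± 0.24 for TEAD3, with YAP1 at 0.03 ± 0.19 and WWTR1 at 0.07 ± 0.16. The 95% intervals of these 9 genes reached no further than −0.77 (TEAD1) and 0.79 (TEAD3). Knockdown and scramble libraries did not overlap for NF2 and TEAD3, which were higher, and for AMOTL1, which was lower, that is for 3 of 10 members, against 47.9% of all tested genes (24.8% higher and 23.1% lower). Replicates of knockdown total RNA were further apart than those of scramble total RNA for 9 of the 10 members, such as LATS2 with 22.2 and 35.7 CPM against 32.9 and 28.7 CPM. Across 12891 genes with a coding model, the total RNA fold change had a Spearman correlation of −0.38 with transcript length. Its median was −0.14 for transcripts over 6000 nt, the range that holds NF2, AMOTL1 and LATS1. The part of length in the members' values was not tested.

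In polysomal RNA, where a level follows both the amount of an mRNA and its loading, no member was called between knockdown and scramble by edgeR or DESeq2. edgeR called 2 genes (0.0123%) and DESeq2 228 (1.4%), while 2152 genes had an edgeR unadjusted p under 0.05. WWTR1 came closest, with 37.4 and 37.9 CPM in knockdown polysome against 32.4 and 25.2 CPM in scramble polysome libraries. Both knockdown libraries were higher, by a log2 fold change of 0.38 ± 0.17 (95% interval 0.02 to 0.75, edgeR unadjusted p = 0.0409 and adjusted p = 0.354). TEAD1 had 20.0 and 15.1 CPM in knockdown polysome against 32.6 and 16.03 CPM in scramble polysome libraries, which overlap, and a log2 fold change of −0.47 ± 0.29 (edgeR adjusted p = 0.508). That value rested on scramble polysome replicate 1, since it was 0.11 without that library. Knockdown and scramble polysome libraries did not overlap for 7 of 10 members, against 34% of tested genes (15.5% higher and 18.5% lower), with WWTR1, TEAD4, LATS1, LATS2 and NF2 higher and AMOTL1 and AMOTL2 lower. The sizes were small, from 0.15 ± 0.22 for LATS1 to 0.38 ± 0.17 for WWTR1 among those that were higher, and none passed the test.

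**Figure D4:**
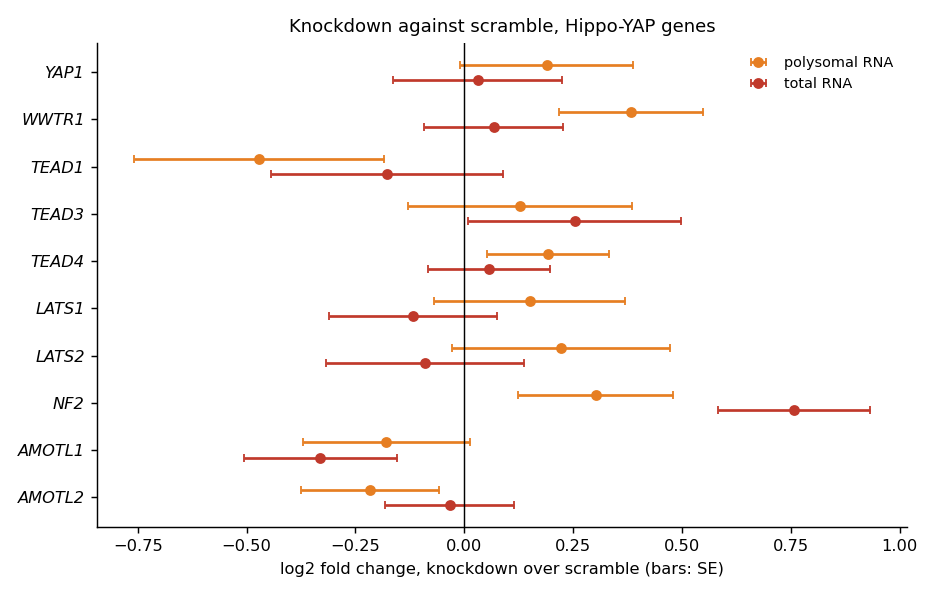
Log2 fold change of knockdown over scramble (x axis) for the 10 Hippo-YAP genes (y axis), in polysomal RNA (orange) and total RNA (red); points are edgeR estimates and bars their standard errors. NF2 in total RNA, at 0.76, is the farthest from 0, and no gene passed the edgeR threshold in either kind of RNA.

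The ratio of polysomal to total RNA in knockdown cells over that in scramble cells was tested as an interaction, the comparison closest to the question of which mRNAs need EIF4G2 for their place in polysomes. No member was called, and edgeR called 0% of tested genes, with 1018 at an unadjusted p under 0.05, while DESeq2 called 4 genes (0.0246%). NF2 had the lowest value, −0.46 ± 0.25 (95% interval −1.003 to 0.091, edgeR adjusted p = 0.776), its total RNA being higher by more than its polysomal RNA. WWTR1 had the highest, 0.32 ± 0.23 (95% interval −0.19 to 0.82, edgeR adjusted p = 0.83). YAP1 stood at 0.16 ± 0.28 and TEAD4 at 0.14 ± 0.20. Leaving out a library turned the sign of the ratio for YAP1, TEAD1, TEAD3 and AMOTL1.

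Of 44 further Hippo pathway genes, 40 were tested, and none was called between knockdown and scramble in total RNA, polysomal RNA or their ratio by edgeR or DESeq2, with 1, 5 and 1 genes at an unadjusted edgeR p under 0.05. The nearest was the scaffold RASSF1 in polysomal RNA, at −0.70 ± 0.19 (edgeR adjusted p = 0.194, DESeq2 adjusted p = 0.0597), which edgeR called without the count filter (−0.74, adjusted p = 0.0207) and without knockdown polysome replicate 2 (−1.02, adjusted p = 0.0442). Set against total RNA, polysomal RNA had 3 of the 40 higher and 29 lower in both kinds of cell by edgeR, with medians of −1.31 in knockdown and −1.01 in scramble cells. Of all tested genes edgeR called 28.9% higher and 34.1% lower in knockdown cells, and 29.7% and 33.7% in scramble cells. Of 22 tested upstream activators, 20 were lower in knockdown and 17 in scramble cells, among them the giant cadherin DCHS1 at −6.22 ± 0.40 in knockdown and −6.15 ± 0.38 in scramble cells, and the kinase TAOK2 at −2.88 ± 0.17 and −2.65 ± 0.17. DCHS1 had only 12 to 43 counts in a polysome library. It has 9897 coding nt, and genes over 5000 coding nt had a median of −2.51 in both kinds of cell. Among the core kinases and scaffolds, STK4 (MST1), a kinase upstream of LATS1 and LATS2, was lower at −1.91 ± 0.24 in knockdown and −1.92 ± 0.23 in scramble cells. AJUBA, which restrains LATS kinases, was lower at −2.71 ± 0.22 in knockdown and −2.16 ± 0.21 in scramble cells. TEAD2, the remaining member of the TEAD family, opens at ATG and resembled TEAD4, with 66.5 and 68.0 CPM in knockdown polysome against 31.9 and 25.6 CPM in knockdown total libraries, and 58.4 and 49.8 CPM in scramble polysome against 23.1 and 26.5 CPM in scramble total libraries. Its log2 fold change was 1.23 ± 0.17 in knockdown and 1.13 ± 0.17 in scramble cells (edgeR adjusted p = 8.6e-05 and 0.000154). The TEAD cofactor VGLL3 was also higher in polysomes, at 1.09 ± 0.22 in knockdown and 0.87 ± 0.22 in scramble cells, whereas VGLL4, which competes with YAP1 for TEAD proteins, was lower at −1.63 ± 0.27 in knockdown and −1.56 ± 0.26 in scramble cells. The scramble value of VGLL3 was not called without scramble polysome replicate 1 (0.53, edgeR adjusted p = 0.0875) or without scramble total replicate 1 (0.79, edgeR adjusted p = 0.0555).

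The genes that YAP-TEAD complexes turn on were taken as a readout of the pathway, although YAP activity itself was not measured. Of 23 listed targets 22 were tested, AMOTL2 and LATS2 being both members and targets. None was called by edgeR between knockdown and scramble in total RNA, in polysomal RNA or in their ratio. DESeq2 called 2 of them in polysomal RNA, ANKRD1 and ARHGEF17, both lower in knockdown cells, where it called 0.826% of tested genes lower. ANKRD1, a cardiac ankyrin repeat protein and a standard readout of YAP activity, had 27.1 and 30.7 CPM in knockdown polysome against 66.3 and 86.9 CPM in scramble polysome libraries. In total RNA it had 5.02 and 5.37 CPM in knockdown against 6.14 and 7.06 CPM in scramble libraries. The knockdown libraries were below the scramble libraries in both kinds of RNA. In polysomal RNA the log2 fold change was −1.41 ± 0.18, with an adjusted p = 0.0651 by edgeR and 1.48e-07 by DESeq2, and edgeR on the 4 polysome libraries alone gave an adjusted p = 0.0226. Over the fits that left out a library, edgeR's adjusted p ran from 0.0325 to 0.325, and ANKRD1 was called without scramble total replicate 1, scramble total replicate 2 or knockdown polysome replicate 2. In total RNA it was −0.34 ± 0.20 (edgeR adjusted p = 1), and the difference between the values in polysomal and total RNA, the ratio, was −1.06 ± 0.27 (edgeR unadjusted p = 0.00242 and adjusted p = 0.776).

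ARHGEF17 had 2.70 and 2.29 CPM in knockdown polysome against 4.82 and 7.72 CPM in scramble polysome libraries, and 56.2 and 74.7 CPM in knockdown total against 68.1 and 65.1 CPM in scramble total libraries. In polysomal RNA its log2 fold change was −1.31 ± 0.29, with an adjusted p = 0.162 by edgeR and 0.00675 by DESeq2, and DESeq2 on the 4 polysome libraries alone, an alternative chosen after seeing the data, gave 0.802. Without the count filter edgeR called it in polysomal RNA (−1.36, adjusted p = 0.000242) and in the ratio (−1.31, adjusted p = 0.0451), against a ratio of −1.29 ± 0.35 with the filter (edgeR adjusted p = 0.776). The matricellular CCN2 (CTGF) had 448 and 418 CPM in knockdown polysome against 556 and 611 CPM in scramble polysome libraries, with a log2 fold change of −0.43 ± 0.14 (edgeR adjusted p = 0.262, DESeq2 adjusted p = 0.0565). In total RNA CCN2 had 148 and 136 CPM in knockdown against 140.1 and 136 CPM in scramble libraries, which overlap. Over the 22 targets the median log2 fold change of knockdown over scramble was −0.20 in polysomal and −0.03 in total RNA, against −0.01 and 0.02 over all tested genes. In total RNA the targets with the smallest p were higher in knockdown cells. These were IGFBP3 at 0.79 ± 0.25 and F3 at 0.74 ± 0.27 (edgeR unadjusted p = 0.0092 and 0.0191), neither of them called. Knockdown and scramble libraries did not overlap for 7 targets that were higher and 3 lower in total RNA, against 24.8% and 23.1% of tested genes. In polysomal RNA 3 were higher and 8 lower, against 15.5% and 18.5%.

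**Figure D5:**
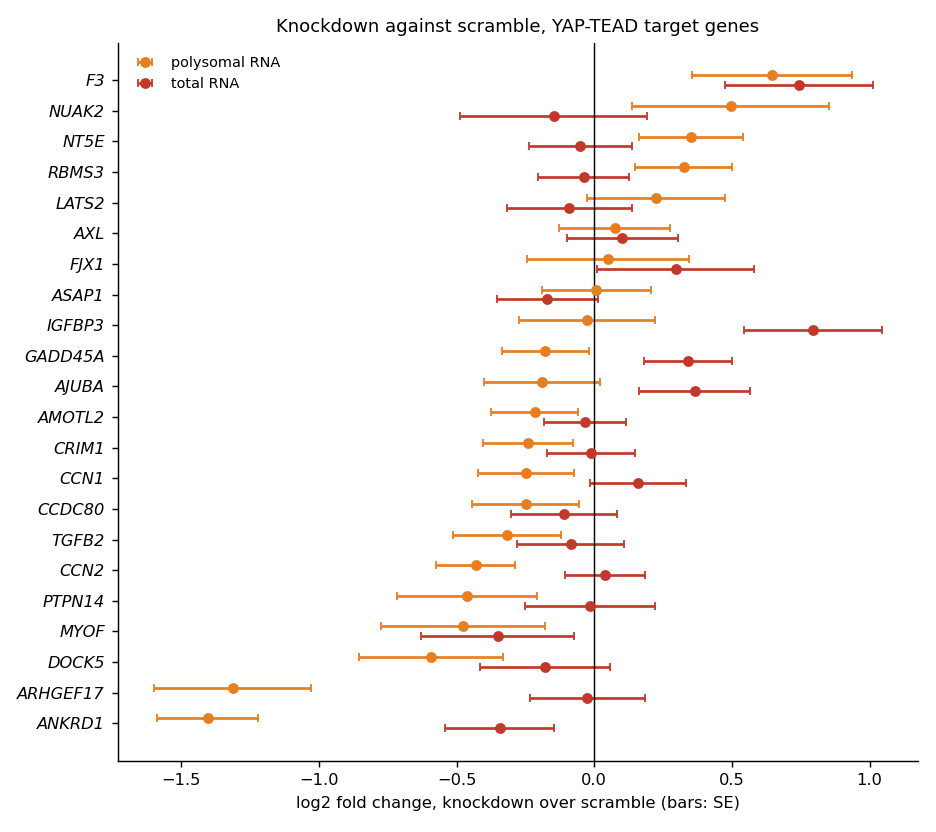
Log2 fold change of knockdown over scramble (x axis) for the 22 tested YAP-TEAD target genes (y axis, ordered by the polysomal value), in polysomal RNA (orange) and total RNA (red); points are edgeR estimates and bars their standard errors. ANKRD1 and ARHGEF17 lie lowest in polysomal RNA, at −1.41 and −1.31, and no gene passed the edgeR threshold.

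TEAD proteins recognise the motif GGAATG, which was searched on both strands (GGAATG or CATTCC) in RefSeq promoter windows of 300 bases around the start of transcription (GRCh38.p14). The promoter tables matched 8 of the 10 members, all but TEAD1 and TEAD4. The motif was in the windows of AMOTL2, YAP1 and LATS2 (3 of 8), in 10 of 17 matched target genes and in 14.0% of all 35116 promoters. Members and targets were counted by gene, with a match in any window of the gene, and all promoters by window. A gene can have several windows, so these shares are not like for like. AMOTL2 and LATS2 count in both gene sets. The matches of the members and of ANKRD1, the target with the largest difference in polysomes, are shown with the motif in capitals, on the strand of the gene.
AMOTL2, chr3:134374500-134374527, minus strand: tgaaactctcaCATTCCtggcatagcag
YAP1, chr11:102110274-102110301, plus strand: gggagtgtgcaGGAATGtagcaacttgc
LATS2, chr13:21061561-21061588, minus strand: gtgacgcccgtGGAATGccaacaatgta
ANKRD1, chr10:90921291-90921318, minus strand: tcaccaccaaaGGAATGgccctctcaca
ANKRD1, chr10:90921199-90921226, minus strand: acactgagtctGGAATGaaaattcacct
A match describes these letters and is not a binding site. The 3 members with a match had knockdown over scramble values of −0.03 ± 0.15, 0.03 ± 0.19 and −0.09 ± 0.23 in total RNA, in the order AMOTL2, YAP1 and LATS2, none of them called.

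Across the 8 libraries, the members most alike in pattern were LATS1 and AMOTL1, with a root mean square difference of 0.141 between their centred log2 CPM, and LATS1 and LATS2, with 0.143. Among 8902 tested genes with a mean log2 CPM of at least 3, those closest to YAP1 were SNX18 (0.0773), USP28 (0.0777) and UHRF2 (0.0853), and those closest to WWTR1 were ERRFI1 (0.0493), M6PR (0.0629) and CDH11 (0.0727). The closest to NF2 were SDC1 (0.151), PHETA1 (0.155) and MBD3 (0.169), so no gene was as close to NF2 as several were to the coactivators. These distances describe the 8 libraries, in which the step between polysomal and total RNA weighs most.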

How the data were processed

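Whole-number counts per gene were deposited by the authors without normalization, in a table of the 8 libraries, which carried the labels' hairpin, fraction and replicate names. Per the submitters' processing notes, reads were handled with HISAT2 2.1.0, Trimmomatic 0.36, bcl2fastq 2.19.0, featureCounts, Subread 2.0.1, R 4.1.2 and DESeq2 on GRCh38. Neither the annotation nor the strand setting was given in the sources used here, so the antisense genes that overlap exons of YAP1, WWTR1, LATS1 and AMOTL1 cannot be told apart from them. WWTR1-AS1 and the pseudogene YAP1P1 had at most 13 and 5 counts. How polysomes were isolated was not given either. The series' design text speaks of triplicates, and 2 replicates per group were analysed here.

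Genes were filtered with filterByExpr, scaled by TMM (factors 0.653 to 0.751 in polysome and 1.37 to 1.45 in total libraries) and fitted with edgeR 4.0.16 in R 4.3.3 (robust quasi-likelihood, 1 mean per group, all 8 libraries, 4 residual degrees of freedom), with Benjamini-Hochberg adjustment over the 16228 tested genes and a threshold of 0.05. Standard errors are the log2 fold change over the square root of F, and intervals are 95% intervals. DESeq2 1.42.0 was the alternative tool. The fits were tested on simulated counts, with changes placed in genes of high mean count. A log2 change of 1 was called for 67.0% of the changed genes in total RNA and 61.3% in polysomal RNA. For a log2 change of 2 the shares were 100% and 97.9%. The simulation changed 106 genes by 1 and 94 by 2, whereas in the data edgeR called 0 genes in total and 2 in polysomal RNA. The adjusted p depends on how many genes change, so these shares do not say how often such a change would be called in the data. No change in the ratio was simulated, so how well the ratio test finds one was not checked. Transcripts came from GENCODE v29, by APPRIS rank, then membership of the consensus coding set, then length. Members and lists were chosen with earlier results of these data known. Named outside the members were the 3 genes of each list with the smallest p, and listed genes called by edgeR or DESeq2 in a knockdown comparison. CCN1 and MAP4K4 fall outside this and were named after their values were seen.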

Additional observations from a re-analysis of the deposited data

Results flagged for a closer look

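In 4 of 68 tested pathway or target genes (5.88%) both knockdown libraries lay on one side of both scramble libraries in polysomal RNA and on the other side in total RNA, as they did in 5.41% of all tested genes. The difference itself was tested as the interaction of hairpin and fraction and did not pass in any of them. RASSF1, a scaffold of the kinases upstream of LATS, had 26.7 and 37.5 CPM in knockdown polysome against 48.8 and 55.0 CPM in scramble polysome libraries, and 52.5 and 44.5 CPM in knockdown total against 39.3 and 37.7 CPM in scramble total libraries. Its interaction was −1.03 (edgeR unadjusted p = 0.00245, adjusted p = 0.776). CCN1, a matricellular YAP target, had 1156 and 1209 CPM in knockdown polysome against 1247 and 1562 CPM in scramble polysome libraries, and 618 and 566 CPM in knockdown total against 519 and 541 CPM in scramble total libraries, with an interaction of −0.408 (edgeR adjusted p = 0.793). MOB1A, which binds and activates LATS kinases, had an interaction of 0.285 (edgeR adjusted p = 0.809), and the kinase MAP4K4 one of 0.238 (edgeR adjusted p = 0.864), both higher in polysomal and lower in total RNA of knockdown cells. The separation in total RNA was narrow. There MOB1A had 109.7 and 115.37 CPM in knockdown against 115.43 and 116.5 CPM in scramble libraries, and MAP4K4 190 and 212.9 against 214.8 and 215.1 CPM. In polysomal RNA MOB1A had 105 and 104 against 92.9 and 84.7 CPM, and MAP4K4 75.0 and 67.0 against 65.8 and 62.8 CPM.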

How the results depend on the processing

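The 9 lower and 1 higher polysomal calls in scramble cells held under all alternatives run. In knockdown cells 9 of the 10 held under all of them and WWTR1 did not, with an edgeR adjusted p = 0.0656 under the replicate block and 0.0889 with each culture's replicate number as a block, and 0.106 by DESeq2 on the 4 libraries alone. The labels give the groups the same replicate numbers without saying that a number marks a shared culture, and deviations of same-numbered libraries had correlations of −0.0921 to 0.0264. The replicate block made ANKRD1 a call in polysomal RNA (edgeR adjusted p = 0.0282) and changed no member's call between knockdown and scramble. Genes called in total RNA were 0 in the fit reported, 26 by DESeq2, 38 without the count filter, 10 with edgeR on the 4 libraries alone and 127 with DESeq2 on them; members called were 1 (NF2) by DESeq2, 1 without the filter and 1 by DESeq2 on the 4 libraries. In polysomal RNA 2 genes were called in the fit reported, 228 by DESeq2, 502 without the filter, 12 by DESeq2 on the 4 libraries and 0 to 183 leaving out a library, the last without knockdown polysome replicate 2, and no member in any of these fits. For the ratio, 0 were called in the fit reported, 4 by DESeq2, 64 without the filter and 0 to 2 leaving out a library. The polysomal EIF4G2 call was lost in 5 of 8 fits that left out a library. The causes were not tested.

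Leaving out a library turned the sign of some small knockdown over scramble values, none of them called. In total RNA the ranges were −0.18 to 0.21 for YAP1, −0.000223 to 0.13 for WWTR1, −0.0534 to 0.15 for TEAD4, −0.31 to 0.0467 for LATS1, −0.48 to 0.21 for LATS2, −0.17 to 0.0851 for AMOTL2, −0.25 to 0.16 for ARHGEF17 and −0.0234 to 0.0944 for CCN2. In polysomal RNA they were −0.0754 to 0.37 for YAP1, −0.96 to 0.11 for TEAD1 and −0.26 to 0.54 for TEAD3. In the ratio they were −0.0883 to 0.36 for YAP1, −0.77 to 0.31 for TEAD1, −0.50 to 0.31 for TEAD3 and −0.0363 to 0.37 for AMOTL1. With 83 counts in the thinnest library, LATS1 had the least depth of the members.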
